A study of Saccharomyces cerevisiae with 4 samples.

Results

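The 10 genes described here encode enzymes of the tricarboxylic acid (TCA) cycle of Saccharomyces cerevisiae: CIT1, CIT2, ACO1, IDH1, IDH2, KGD1, KGD2, LPD1, FUM1 and MDH1. They were chosen by systematic name as enzymes of the cycle, by a rule that uses no measured value, from the 6207 genes listed in the deposited table. Earlier results of these data were known at that choice. CIT2, the peroxisomal citrate synthase gene of the glyoxylate route, was counted with the cycle genes. All 10 had a value on all 4 arrays, as did 2925 genes, or 47.1% of those listed. The cells were a mid2 mutant in the BY4741 background, so they lack Mid2, a plasma membrane protein that senses cell wall damage. Each culture grew in YEPD at 24 °C and was split. One part then received caspofungin, an antifungal drug that blocks synthesis of the glucan of the cell wall, at 15 ng/ml, while the other part was left untreated, and RNA was taken at 2 h. The mutant allele was thus shared by the caspofungin cells and the untreated cells, and no MID2 cells are among the samples. RNA from 2 cultures was hybridised to 4 2-colour arrays with the dyes swapped. Caspofungin RNA was labelled with Cy3 on arrays 1 and 3 and with Cy5 on arrays 2 and 4.

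The TCA cycle oxidises the acetyl group of acetyl-CoA in the mitochondrial matrix, feeds electrons to the respiratory chain, and supplies 2-oxoglutarate and oxaloacetate for amino acid synthesis. In yeast growing on glucose the cycle genes are held down by glucose repression. The steps from citrate synthase to isocitrate dehydrogenase then mainly supply 2-oxoglutarate for glutamate. The Rtg1 and Rtg3 transcription factors of the retrograde pathway act on CIT1, CIT2, ACO1, IDH1 and IDH2 when mitochondrial function is poor, and the HAP complex acts on many cycle genes in respiring cells.

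Each value is the log2 ratio that the authors deposited for a gene on an array, taken here as caspofungin over untreated, so that 1.0 is a 2-fold difference. The labels do not state this direction. It is likely because the title names the treated condition. HIS3 and LEU2, both disrupted in BY4741, bear on whether the authors had already turned the dye-swapped arrays. Their ratios alternated with the dyes, HIS3 with -0.63, 0.40, -0.64 and 0.39 and LEU2 with -0.58, 0.24, -0.64 and 0.25 on arrays 1 to 4, whereas a dye bias in unturned ratios would keep 1 sign. The control row 3XSSC did keep 1 sign, with 0.26, 0.10, 0.997 and 0.44. The other control row, Arabidopsis, did not, with -0.62, 0.10, 0.13 and 0.73. HSP12, a stress protein gene, also kept 1 sign, with 4.73, 3.14, 3.63 and 4.08. A response to caspofungin would keep 1 sign in turned ratios and alternate in unturned ones. Over all genes, Pearson's r was 0.65 and 0.79 between arrays that share an orientation and -0.15 to 0.14 between those that do not. Spearman's rho was 0.67 and 0.76 for the former and negative throughout for the latter, from -0.33 to -0.12. Both are descriptions in which genes are not independent replicates. HIS3, LEU2 and HSP12 thus read as they would in turned ratios, whereas 3XSSC read as a dye bias would in unturned ones. The labels leave direction unsettled, and the ratios were kept as deposited. Ratios with the sign switched on arrays 1 and 3, as the dye labels would have it, are given for the members and for some other genes. Other printed means can depend on direction too. With the switch the means of LSC2, MDH3, GDH2 and GCV1, named below, also change sign, to -0.46, 0.405, 0.30 and 0.05. The table gives no value for MID2, 1 of 1806 genes blank on every array, so the genotype was not checked. The ratios are of bulk RNA, in which a shift in some cells and a smaller shift in all of them cannot be told apart. Of the a-cell markers, 5 of 5 had values on all arrays and 0 of 4 alpha-cell markers did, beside 47.1% of the genes listed. MF(ALPHA)2, an alpha-cell marker, had values on 3 arrays and SAG1, another, on 1. The cells are of an a-type background. The disrupted HIS3 and LEU2 also had values on all arrays, so having values does not show the cell type.

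No TCA enzyme gene passed the test, and the ratios were small. The means of the 10 genes ran from -0.20 for FUM1 to 0.43 for KGD1, with 7 of 10 positive, beside 27.0% of all 2925 genes. With the sign switched on arrays 1 and 3 it was 5 of 10, beside 55.9%. CIT1 and KGD1 were positive on all 4 arrays, 2 of 10, beside 6.87% of all genes, and 0 of 10 were negative on all 4, beside 19.3%. The genes of the first steps, from citrate synthase to isocitrate dehydrogenase, had means of 0.19 to 0.29. Those of the last steps, fumarase and malate dehydrogenase, had -0.20 and -0.08. The limma test on the means of the 2 cultures, with Benjamini-Hochberg adjustment over all genes, called 0 of 10 (adjusted p from 0.173 to 0.680), beside 0.0342% of all genes, which is HSP12. At an unadjusted p under 0.05 there were 2 of 10, KGD1 and CIT1, beside 25.3% of all genes. The 95% intervals of the 10 mean ratios lay between -0.44 and 0.77, so a 2-fold difference was outside each of them on the deposited scale.

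**Figure D1:**
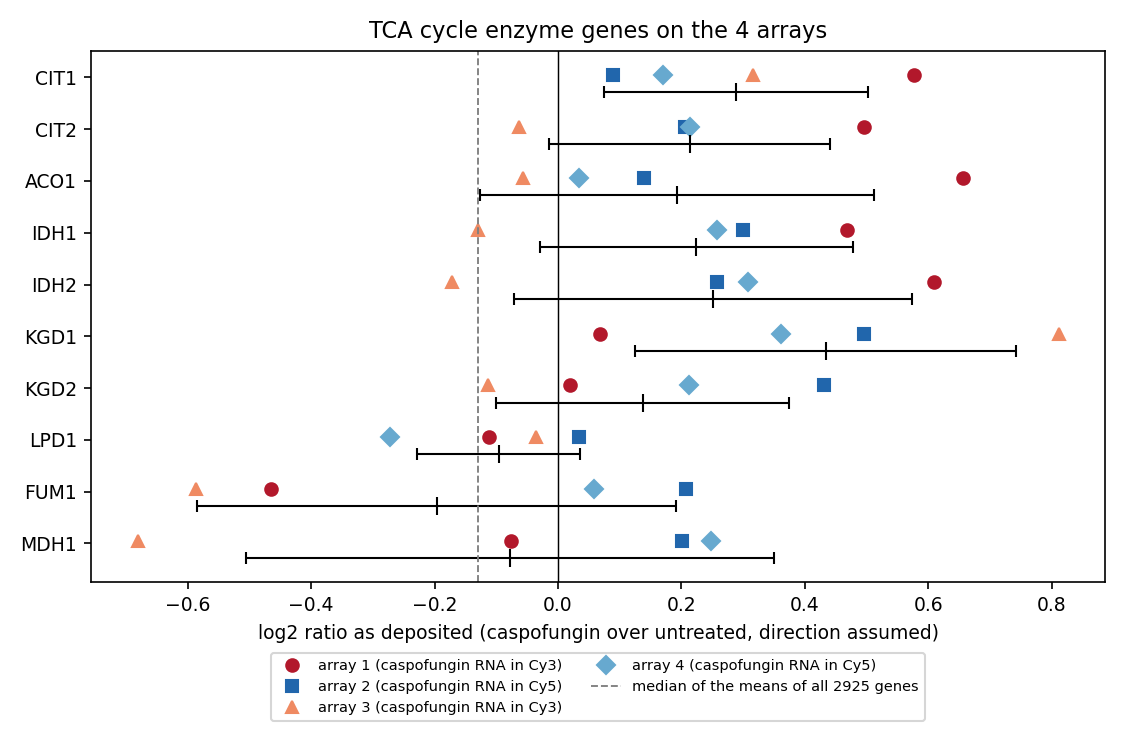
Log2 ratio of each TCA enzyme gene on the 4 arrays (symbols), with the mean and SD over the arrays below them (black tick and bar) and the median of the means of all 2925 genes (dashed line, -0.13). CIT1 and KGD1 lie above 0 on every array, and FUM1 and MDH1 lie below 0 on arrays 1 and 3 and above it on arrays 2 and 4.

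CIT1 (YNR001C) encodes the mitochondrial citrate synthase, which joins acetyl-CoA and oxaloacetate at the entry of the cycle. Its log2 ratios were 0.58, 0.09, 0.32 and 0.17 on arrays 1 to 4. All 4 were positive, and array 1 was the highest. The mean was 0.29 ± 0.21 (SD, n = 4 arrays), a 1.22-fold ratio with an interval of 0.03 to 0.55, which did not pass (limma, adjusted p = 0.185).

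CIT2 (YCR005C) encodes the peroxisomal citrate synthase of the glyoxylate route and is the best known target of retrograde signalling. It read 0.49, 0.21, -0.06 and 0.21 on arrays 1 to 4. Array 3 was the 1 array without a positive ratio, and arrays 2 and 4 differed by 0.0076. The mean was 0.21 ± 0.23 (limma, adjusted p = 0.287). The 2 citrate synthase genes differed by 0.08 ± 0.22 in mean ratio (CIT1 minus CIT2, SD, n = 4 arrays), with CIT1 above CIT2 on 2 of 4 arrays, so no difference beyond the spread between arrays was seen.

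ACO1 (YLR304C) encodes aconitase, the iron-sulfur enzyme that turns citrate into isocitrate. Its ratios were 0.66, 0.14, -0.06 and 0.03. Array 1 stood well above the other arrays, and the mean was 0.19 ± 0.32 (limma, adjusted p = 0.401). Without array 1 the estimate from the culture means was 0.05, so most of this value came from that array.

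IDH1 (YNL037C) and IDH2 (YOR136W) encode the regulatory and the catalytic subunit of the NAD-dependent isocitrate dehydrogenase. IDH1 read 0.47, 0.30, -0.13 and 0.26 on arrays 1 to 4, and IDH2 read 0.61, 0.26, -0.17 and 0.31. Both were positive on arrays 1, 2 and 4 and negative on array 3. The means were 0.22 ± 0.25 and 0.25 ± 0.32 (limma, adjusted p = 0.295 and 0.287). The subunit genes stayed close on every array, with differences of 0.04 to 0.14 in size and a mean difference of -0.03 ± 0.09 (IDH1 minus IDH2).

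For 2-oxoglutarate dehydrogenase, KGD1 and KGD2 read apart mainly on array 3. KGD1 (YIL125W) encodes its thiamine-dependent E1 component, and had 0.07, 0.50, 0.81 and 0.36 on arrays 1 to 4. All 4 ratios were positive, and unlike in IDH1 and IDH2 the highest was on array 3 and the lowest on array 1. Its mean of 0.43 ± 0.31 was the highest of the 10, a 1.35-fold ratio with an interval of 0.10 to 0.77 (limma, adjusted p = 0.173). KGD2 (YDR148C), the gene of the lipoyl-bearing E2 component, had 0.02, 0.43, -0.11 and 0.21, with a mean of 0.14 ± 0.24 (limma, adjusted p = 0.382). It averaged 0.32 with caspofungin RNA in Cy5 and -0.05 with it in Cy3. Without array 2 the estimate from the culture means was 0.02. KGD1 exceeded KGD2 on 4 of 4 arrays, by 0.05 to 0.15 on arrays 1, 2 and 4 and by 0.92 on array 3. The mean difference was 0.30 ± 0.42, smaller than its SD.

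LPD1 (YFL018C) encodes dihydrolipoamide dehydrogenase, the E3 component that 2-oxoglutarate dehydrogenase shares with pyruvate dehydrogenase and the glycine cleavage system. Its ratios were -0.11, 0.03, -0.04 and -0.27, so 1 of 4 was positive. The mean was -0.10 ± 0.13 (limma, adjusted p = 0.555), and its SD was the smallest of the 10. KGD1 exceeded LPD1 on 4 of 4 arrays, by 0.53 ± 0.28 on average. Genes were compared as ratios on the same arrays and these pairs were picked after their values were seen, so no test is given.

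FUM1 (YPL262W), the single fumarase gene, whose product is found in the mitochondria and the cytosol, had -0.46, 0.21, -0.59 and 0.06 on arrays 1 to 4. MDH1 (YKL085W), the gene of the mitochondrial malate dehydrogenase that closes the cycle, had -0.08, 0.20, -0.68 and 0.25. Both were negative on the arrays with caspofungin RNA in Cy3 and positive on those with it in Cy5. That sign pattern was found in 2 of 10 members and in 19.7% of all genes, and the opposite pattern in 0 of 10 and 13.4%. The means were -0.20 ± 0.39 for FUM1 and -0.08 ± 0.43 for MDH1 (limma, adjusted p = 0.253 and 0.680). FUM1 averaged 0.13 with caspofungin RNA in Cy5 (arrays 2 and 4) but -0.53 with it in Cy3, and MDH1 averaged 0.22 and -0.38, so neither orientation's mean stands for both. Without array 3 the estimate for MDH1 from the culture means was 0.15.

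The dye part of each ratio, which is the mean of arrays 2 and 4 less that of arrays 1 and 3, divided by 2, was largest in these genes among the members. It was 0.33 for FUM1 and 0.30 for MDH1 and lay between -0.16 and 0.18 for the other members. KGD1, CIT2, LPD1, IDH2 and IDH1 had the smallest dye parts, of -0.0056, -0.0032, -0.02, 0.03 and 0.05. KGD1 had nearly the same mean in both orientations, 0.43 with caspofungin RNA in Cy5 and 0.44 with it in Cy3. That Cy3 mean averages 2 unlike arrays, with 0.07 on array 1 and 0.81 on array 3. Arrays 1 and 3 also differed by 0.56 in CIT2, 0.78 in IDH2 and 0.60 in IDH1, but by 0.08 in LPD1. No member passed the test of the dye part (0 of 10, limma, adjusted p = 0.103 for FUM1 and 0.164 for MDH1), and 0 genes passed in all, with 1 of 10 and 32.3% of all genes at an unadjusted p under 0.05. Had the deposited ratios followed the dyes, the dye part would be the caspofungin effect. FUM1 and MDH1 would then have the 2 highest values, and CIT1 and ACO1 would have -0.16 and -0.11.

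**Figure D2:**
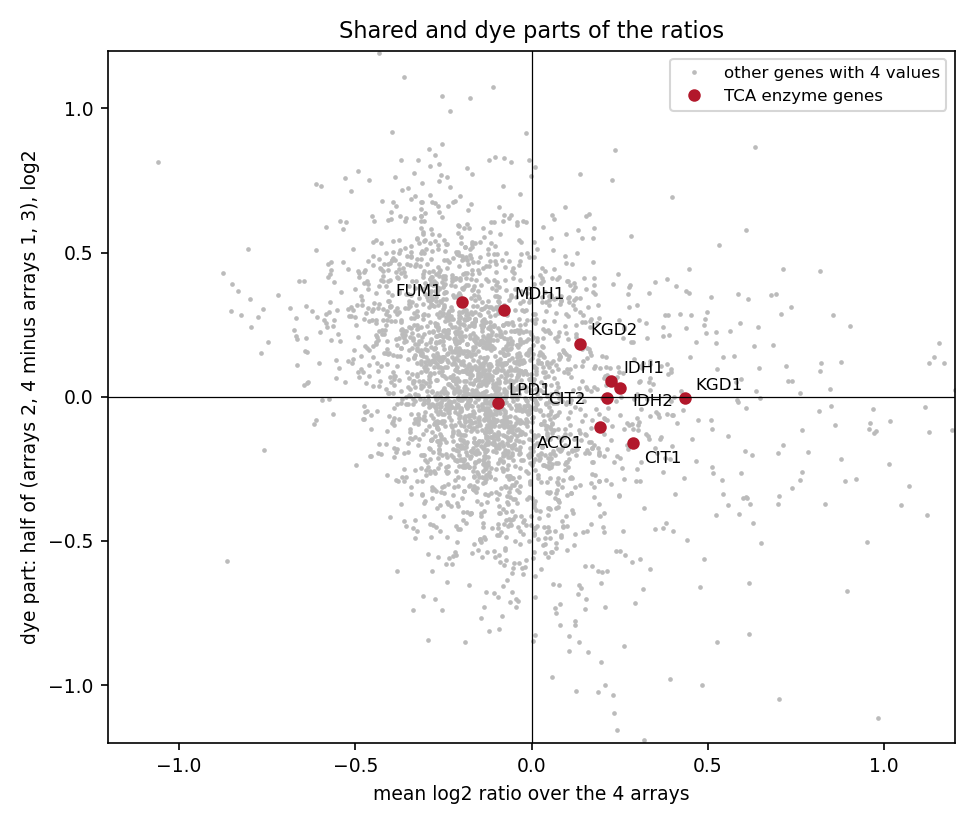
Mean log2 ratio over the 4 arrays (horizontal) against the dye part (vertical, log2, the difference between arrays 2, 4 and arrays 1, 3 divided by 2) for the 10 TCA enzyme genes (red, named) and the other genes with 4 values (grey). Both axes stop at 1.2, which leaves 46 genes outside. KGD1, CIT2, IDH1 and IDH2 sit near a dye part of 0 with means of 0.21 to 0.43. LPD1 sits near it with a mean of -0.10. CIT1 and ACO1 sit below, at dye parts of -0.16 and -0.11, and KGD2 above, at 0.18. FUM1 and MDH1 sit highest of the members, at 0.33 and 0.30.

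The deposited ratios were not centred on 0. The median of the 10 members was 0.27, 0.21, -0.09 and 0.21 on arrays 1 to 4, whereas that of all 2925 genes was -0.10, -0.06, -0.22 and -0.07. The members' median thus lay above that of all genes on each array, by 0.37, 0.26, 0.13 and 0.29. Over the 4 arrays the median of the members' means was 0.20, against -0.13 for all genes, a distance of 0.33. With each array centred on its own median, CIT1, CIT2, ACO1, IDH1, IDH2, KGD1 and KGD2 were positive on all 4 arrays, 7 of 10, beside 11.0% of all genes. The remaining LPD1, FUM1 and MDH1 had centred means of 0.02, -0.08 and 0.04, so the negative signs of LPD1 and MDH1 depend on the centring. With the arrays centred, 6 of 10 had an unadjusted p under 0.05, beside 19.3% of all genes, and 0 passed after adjustment over all genes. After switching the sign on arrays 1 and 3 the members' median was 0.01, which is -0.04 relative to all genes, so the distance of 0.33 rests on the ratios as deposited.

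**Figure D3:**
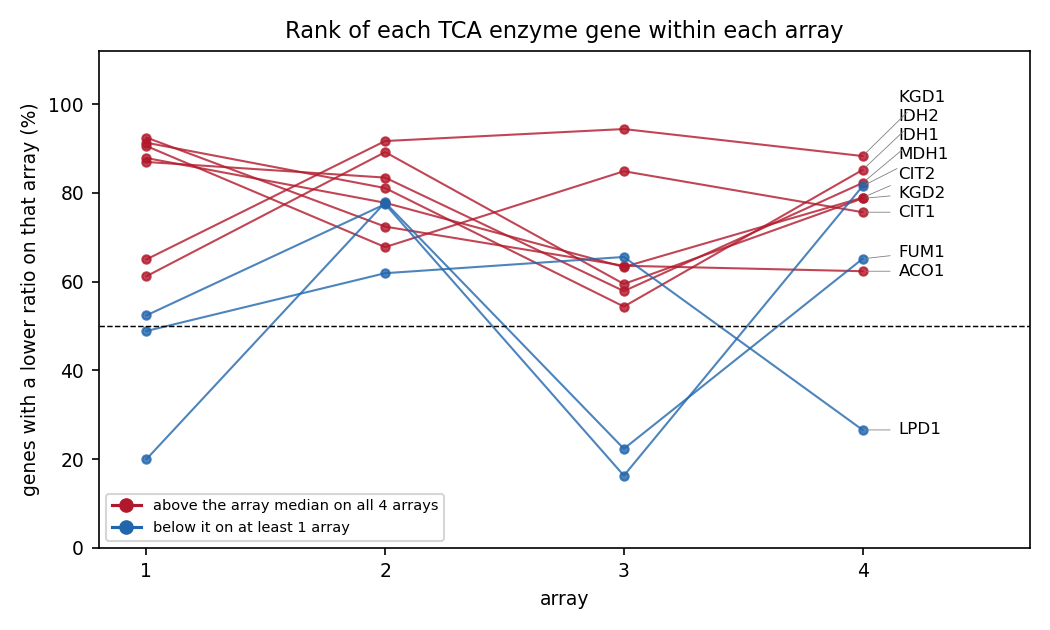
Share of the 2925 genes with a lower log2 ratio than each TCA enzyme gene, on each array (%), with the genes above the array median on all 4 arrays in red and the others in blue. KGD1 runs from 65.0% on array 1 to 94.4% on array 3, and FUM1 swings between 20.0% on array 1 and 77.8% on array 2.

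Ranked within the array, so that scale and centring drop out, the members of the first steps lay highest on array 1. There 92.4% of genes had a lower ratio than ACO1, 91.3% than IDH2, 90.5% than CIT1, 87.8% than CIT2 and 86.9% than IDH1. On array 3 the shares were 63.6% for ACO1, 54.4% for IDH2, 63.3% for CIT2 and 57.8% for IDH1, close to the middle of the array, while CIT1 kept 84.9%. Arrays 1 and 3 share a dye orientation, so this difference is not one of orientation. By the mean over all arrays, 94.8% of genes lay below KGD1, 92.0% below CIT1, 35.9% below FUM1 and 57.4% below LPD1. That order rests on the ratios as deposited: after the switch of sign the shares were 43.5% for KGD1, 24.8% for CIT1, 82.7% for FUM1 and 41.1% for LPD1.

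For 7 of 10 members, beside 65.2% of all genes, arrays 1 and 3 differed more than arrays 2 and 4. Arrays 1 and 3 differed by a median of 0.58 over the 10 members, with IDH2 the widest at 0.78, against a median of 0.27 over all genes. Arrays 2 and 4 differed by a median of 0.09 over the members, with LPD1 the widest at 0.31, against 0.16 over all genes. The difference between arrays 1 and 3 was positive in CIT1, CIT2, ACO1, IDH1, IDH2, KGD2, FUM1 and MDH1, and negative in KGD1 (-0.74) and LPD1 (-0.08). KGD2, LPD1 and FUM1 were the members with the wider difference on arrays 2 and 4. On those arrays 9 of 10 members had a positive mean, LPD1 being the exception, beside 40.5% of all genes. On arrays 1 and 3 it was 6 of 10, beside 36.0%, and with the sign of those arrays switched 4 of 10, beside 64.0%.

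Likeness of pattern was measured as the Euclidean distance between the 4 log2 ratios of a gene and of each of the 2924 other genes with 4 values. The distance includes what the arrays and dyes contribute, and these neighbours were looked up after the values were seen. IDH1 was the nearest of all genes to IDH2, at a distance of 0.16. The nearest to IDH1 was CIT2, at 0.13, followed by IDH2. For ACO1 the nearest member was CIT2, at rank 7, and for KGD1 it was CIT1, at rank 150 and a distance of 0.84. The median profile of the 10 members, 0.27, 0.21, -0.09 and 0.21 on arrays 1 to 4, was nearest to ICY1 (distance 0.12), PSA1, which encodes GDP-mannose pyrophosphorylase (0.14), APE3, a vacuolar aminopeptidase gene (0.17), ARC35, an Arp2/3 complex gene (0.19), and GSR1 (0.19). None of these 5 genes passed the test (limma, adjusted p from 0.341 to 0.463).

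The other genes of the cycle steps were taken from a list of 19, of which 10 had 4 values, 0 passed and the median was -0.05. IDP1, the gene of the mitochondrial NADP-dependent isocitrate dehydrogenase, had 0.40, 0.31, 0.22 and 0.86 on arrays 1 to 4. All 4 were positive, with a mean of 0.45 ± 0.29 (limma, adjusted p = 0.165), as in CIT1 and KGD1. LSC1 and LSC2, the genes of both succinyl-CoA ligase subunits, had means of 0.04 ± 0.12 and 0.26 ± 0.57, and LSC2 was positive on arrays 1 and 3 alone (0.95 and 0.49).

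The sign pattern of FUM1 and MDH1 was also looked for in the other genes from succinate to oxaloacetate, after it had been seen in those members. HIS3 and LEU2 had it too. So did 6 of the 24 measured genes of the feeding, carrier, glutamate, glycine cleavage and regulator lists. SDH3, a membrane anchor gene of succinate dehydrogenase, had -0.57, 0.36, -0.78 and 0.24, and SDH7, an assembly factor gene of the same enzyme, had -0.42, 0.24, -0.70 and 0.26. Negative on arrays 1 and 3 and positive on 2 and 4 were 4 of the 5 measured genes of succinate dehydrogenase and the fumarate reductases, and 1 of the 2 measured malate dehydrogenase genes that are not members, beside the 19.7% of all genes. SDH5 was the exception in the first list, with a mean of -0.20 ± 0.27. MDH3, the peroxisomal malate dehydrogenase gene, was that 1, with a mean of -0.03 ± 0.50. MDH2, the cytosolic malate dehydrogenase gene of gluconeogenesis, was negative on all 4 arrays, at -0.76, -0.04, -1.25 and -0.09. Its mean of -0.53 ± 0.58 did not pass (limma, adjusted p = 0.163), and it was 0.47 with the sign switched on arrays 1 and 3. The catalytic subunit gene SDH1 was blank on all 4 arrays, and SDH2 had values on 3.

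**Figure D4:**
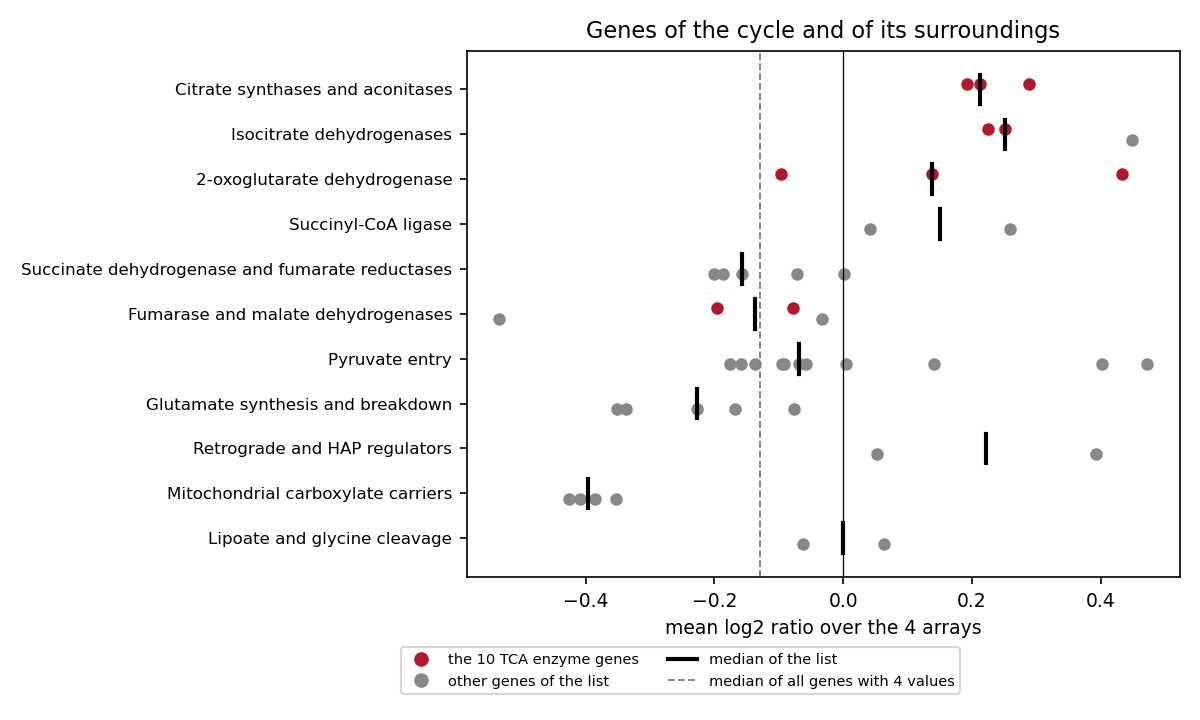
Mean log2 ratio over the 4 arrays of each gene with 4 values, by list, with the 10 TCA enzyme genes in red, the other genes of the list in grey, the median of the list as a black bar and the median of all genes (-0.13) as a dashed line. All members except FUM1 lie right of that line, and the 4 carrier genes lie left of it, between -0.43 and -0.35.

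Among the genes that feed the cycle, both pyruvate carboxylase genes, which make oxaloacetate in the cytosol, had positive means. PYC2 read 0.36, 0.49, 0.75 and 0.29, with a mean of 0.47 ± 0.20 (limma, adjusted p = 0.163). PYC1 read -0.02, 0.15, 0.95 and 0.52, with 0.40 ± 0.43. Both, like KGD1, were highest on array 3, and with the sign switched on arrays 1 and 3 their means were -0.08 for PYC2 and -0.06 for PYC1. The list of pyruvate entry had 11 measured genes, of which 0 passed, with a median of -0.07, and PDX1, the gene of the E3-binding protein of pyruvate dehydrogenase, had -0.18 ± 0.14. All 4 measured genes of mitochondrial carboxylate carriers had negative means, beside 73.0% of all genes, with a median of -0.40, and 0 passed. With the sign switched on arrays 1 and 3 all 4 were positive, beside 55.9% of all genes, with a median of 0.45. They include YHM2, a citrate and 2-oxoglutarate carrier gene (-0.43 ± 0.51), ODC2, a 2-oxodicarboxylate carrier gene (-0.41 ± 0.47), and CTP1, the citrate carrier gene (-0.38 ± 0.77). Their larger ratios were those of arrays 1 and 3: CTP1 had -0.998 and -1.10 on arrays 1 and 3, whereas arrays 2 and 4 gave 0.25 and 0.30.

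Genes of glutamate synthesis and breakdown, which link 2-oxoglutarate to nitrogen metabolism, had negative means in 5 of 5 cases, beside 73.0% of all genes, with a median of -0.23, and 0 passed. With the sign switched on arrays 1 and 3 it was 3 of 5, beside 1290 of 2925 genes, with a median of -0.03. GDH1, the NADP-dependent glutamate dehydrogenase gene, was negative on all arrays with a mean of -0.35 ± 0.22 (limma, adjusted p = 0.203). GLN1, the glutamine synthetase gene, had 0.82, -1.16, -0.01 and -0.999, and GDH2, the NAD-dependent glutamate dehydrogenase gene, had -0.23 ± 0.36. Of the 9 retrograde and HAP regulator genes, 2 had 4 values, and both followed the dyes: HAP1, a haem-responsive activator gene, had 1.10, -0.57, 1.64 and -0.60, and HAP2, a subunit gene of the CCAAT-binding complex, had 0.45, -0.36, 0.43 and -0.32. RTG1 was blank on all arrays and RTG2, RTG3 and MKS1 had a value on array 2 alone. Of the 5 glyoxylate and gluconeogenesis genes 0 had 4 values. GCV3 and GCV1, genes of the glycine cleavage system that uses LPD1, had 0.06 ± 0.46 and -0.06 ± 0.39.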

How the data were processed

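Total RNA of 2 cultures was measured on 4 2-colour arrays, per the labels' protocols. The authors deposited 1 log2 ratio per gene and array. Base 2 was inferred, since undoing it gave ratios with 4 decimals (to within 2e-06) for 100% of values, against 4.33% for base e and 3.98% for base 10. How the scanner output was corrected and normalized, why cells are blank and which build was used is not given in the sources used here, and scale, centring and direction stay unknown. Intensities were not used here, and the number of arrays limits the precision. Names come from the RefSeq table of assembly R64 by systematic name (5654 of 6207 genes matched). No coordinates or sequences are given.

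Genes with 4 values entered a limma fit (version 3.58.1, R 4.3.3) of the culture means against 0. Since the labels do not tell which arrays came from 1 culture, each pairing of opposite orientations was fitted: array 1 with array 2 (and 3 with 4), or array 1 with array 4 (and 2 with 3). The larger p was adjusted by Benjamini-Hochberg over 2925 genes, with a threshold of 0.05, and the printed 95% interval spans both. SDs are over arrays, which are not independent cultures. The script was tested on simulated data. Alternatives were pairing, direction, centring, scaling, blanks, a dye term and each array left out. Values with an array left out are means of the culture means, averaged over both pairings. The remaining array of that culture then stands for it alone. Means of each orientation, and counts and ranks with the direction turned, were added after seeing the data. Named beside the members are up to 3 genes per list with the largest absolute mean, genes past the test, and the 5 nearest to the median profile. SDH1, SDH2, RTG1, RTG2, RTG3 and MKS1 were named for their blanks, after their values were seen. The members and lists were chosen with earlier results of these data known.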

Additional observations from a re-analysis of the deposited data

How the results depend on the processing

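No TCA enzyme gene passed the test in any of the 110 combinations of member and other setting, where the lowest adjusted p was 0.0930 (limma, KGD1 with arrays centred and scaled). Each single pairing, the genes on at least 3 arrays and the dye term leave a member's mean unchanged by construction. Direction could thus turn only in the other settings. The direction of the mean held in 99 of the 110 combinations. It turned in the other 11: with values turned by the dye labels CIT1 was -0.16, CIT2 -0.0032, ACO1 -0.11, KGD1 -0.0056, FUM1 0.33 and MDH1 0.30. With arrays centred LPD1 was 0.0168 and MDH1 0.0358, with arrays also scaled LPD1 was 0.0036 and MDH1 0.0779. Without 1 array MDH1 ran from -0.234 to 0.149, the highest being without array 3. The cause was not tested. Leaving out 1 array gave a members' median of 0.16 to 0.24, or 0.28 to 0.34 relative to all genes. Turned by the dye labels these were 0.0143 and -0.0353, and over both orientations taken alone they moved by less than the spread between arrays. The number of members called was 0 without each array. Over all genes 1 passed. The count was 148 with arrays 1 and 4, and 2 and 3, as the cultures, 0 turned by the dye labels (944 at an unadjusted p under 0.05), 10 centred, 48 centred and scaled, 0 with genes on at least 3 arrays (680 at an unadjusted p under 0.05), 109 with 4 arrays as samples and a dye term, and 1 to 61 without 1 array, 61 being without array 1 and 56 without array 3. For the dye part, 0 genes passed, 485 with arrays 1 and 2, and 3 and 4, as the cultures, 237 centred and 590 centred and scaled. No paired analysis was possible because the ratio on each array already pairs both RNAs and there is 1 group of arrays.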
